A study of Mus musculus with 12 samples.

Results

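S100a8 and S100a9 encode the subunits of calprotectin and were described here as a pair, chosen by name as 2 of the 770 genes on a targeted kidney RNA panel. The kidneys came from 12 female mice aged 8 to 10 weeks, 3 in each of 4 groups. Wild-type (WT) control and WT NTS mice carried intact Aim2, whereas KO control and KO NTS mice lacked Aim2, a cytosolic DNA sensor that assembles an inflammasome. The NTS mice received nephrotoxic serum, whose antibodies against the glomerular basement membrane induce glomerulonephritis, and were studied at day 9. The control mice were untreated, and no day is given for them. Per the labels, the knockout was on B6, and its wild-type comparators were F1 littermates. The sources used here do not give whether these backgrounds otherwise match, or whether Aim2 was lost in every cell type. Aim2 itself was not analysed here, which leaves the genotypes as labelled and unchecked. Replicates were separate mice, as the study's design gives 3 mice in each group.

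S100A8 and S100A9 are small calcium-binding proteins that pair to form calprotectin, which also binds zinc and manganese and so withholds these metals from microbes. Neutrophils and monocytes hold the pair in their cytosol in large amounts, whereas mature tissue macrophages and healthy kidney epithelium hold little. Released calprotectin acts as a danger signal through Toll-like receptor 4 (Tlr4) and the receptor for advanced glycation end products, and it is used as a marker of inflammation in several tissues.

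The genes lie side by side on mouse chromosome 3 within the S100 cluster. Of 13 S100a genes that RefSeq (GRCm38.p6) places on this chromosome, these 2 were on the panel. The 250 bases before each annotated start are shown because they are the stretches in which the promoters of the pair can be compared letter by letter. Capitals mark matches on either strand to TATAAA (the core box that sets the start site in many inducible genes), TTNNGNAA (bound by C/EBP factors of myeloid cells) and GAGGAA (bound by PU.1, a factor of myeloid cells). Coordinates are those of RefSeq on GRCm38.p6, with S100a8 on the plus strand at chr3:90668821-90669070 and S100a9 on the minus strand at chr3:90695722-90695971.
S100a8: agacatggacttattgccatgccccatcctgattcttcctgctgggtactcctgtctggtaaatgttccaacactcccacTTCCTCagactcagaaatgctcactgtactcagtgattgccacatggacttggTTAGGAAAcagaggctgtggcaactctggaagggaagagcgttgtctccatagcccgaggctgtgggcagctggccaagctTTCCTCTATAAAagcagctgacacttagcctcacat
S100a9: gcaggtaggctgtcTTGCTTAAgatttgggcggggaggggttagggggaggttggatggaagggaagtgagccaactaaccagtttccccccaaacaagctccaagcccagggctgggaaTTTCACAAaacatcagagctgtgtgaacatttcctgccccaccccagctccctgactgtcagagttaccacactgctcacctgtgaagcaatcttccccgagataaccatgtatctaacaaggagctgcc

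Of the marked letters, the windows differed in TATAAA and GAGGAA and shared the TTNNGNAA match. S100a8 held 1 such match and S100a9 held 2, and 36.8% of 32851 RefSeq windows of this length held at least 1. TATAAA stood 30 to 25 bases before the S100a8 start and was present in 12.4% of windows. In S100a9 TATAAA was not in the window but at bases 1 to 6 from the annotated start, and 1.34% of genes have it in their first 50 bases. GAGGAA occurred 2 times in S100a8, on the minus strand at 170 to 165 and at 36 to 31 bases before the start, the latter directly beside TATAAA, and did not occur in S100a9. It was found in 23.3% of windows. Neither window held the letters TTCNNNGAA (STAT factors), TGANTCA (AP-1) or the NF-kB motif (GGG, any 2 bases, TT, any base, CC), which occurred in 7.02%, 6.75% and 4.11% of windows. The E-box letters CANNTG occurred 3 times in S100a8 and 1 time in S100a9, against 66.2% of windows with at least 1, and are not marked.

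The panel values were a normalized signal, that is, probe counts divided by a factor per sample so that 20 housekeeping genes have the same geometric mean in nearly every sample. Signals below the geometric mean of a sample's 8 negative probes had been raised to that mean, which lay at 10.02 to 15.11, and 53 to 140 genes per sample stood at this floor. The kidney tubule genes on the panel had high signals in the untreated kidneys, with a summed signal of 54180 to 88922 over 5 genes in WT control and 76396 to 84858 in KO control. WT NTS 1 stood apart from the other treated WT kidneys, as its summed signal over 9 kidney injury genes was 405508 against 81732 and 117593. Values of the pair, and calls lost without this kidney, are given with and without it.

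Both members were measured in every kidney, at low to moderate signal, and their highest values lay in the treated KO kidneys. The S100a8 signal was 46.8, 28.9 and 72.3 in WT control 1, 2 and 3. It was 113, 65.7 and 42.7 in WT NTS 1, 2 and 3, so that the lowest treated kidney lay below the highest untreated one. In KO control it was 30.7, 56.3 and 36.4, whereas KO NTS had 107, 176 and 98.8, all above every KO control kidney and above every WT kidney except WT NTS 1. The mean of WT control was 49.3 ± 21.8 and that of WT NTS 73.6 ± 35.6, whereas KO control had a mean of 41.1 ± 13.4 and KO NTS one of 127 ± 42.4 (SD, n = 3).

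S100a9 followed the same order of groups. Its signal was 35.3, 21.2 and 71.2 in WT control 1, 2 and 3. In WT NTS it was 110, 42.8 and 37.8, again overlapping the untreated range. KO control had 20.8, 41.1 and 24.9, and KO NTS had 82.6, 131 and 93.0, with no overlap between these groups. The means were 42.6 ± 25.8, 63.4 ± 40.1, 29.0 ± 10.7 and 102 ± 25.3 in WT control, WT NTS, KO control and KO NTS (SD, n = 3). From highest to lowest, both genes thus ranked KO NTS, WT NTS, WT control and KO control, and every pair of neighbours in this order overlapped.

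The signal of S100a8 stood for 28 to 163 counts per kidney and that of S100a9 for 19 to 121. A 95% Poisson interval, which covers counting error only, ran from 12.5 to 32.5 for S100a9 in KO control 1 and from 108 to 156 in KO NTS 2. The S100a8 intervals of WT control 2 (19.5 to 41.3) and WT control 3 (56.2 to 91.4) did not meet, so untreated mice of 1 genotype differed by more than counting error. In WT control 2 and KO control 1, S100a9 reached 22 and 19 counts while the highest of the 8 negative probes reached 28 and 25. S100a9 was therefore not separable from background in these 2 kidneys, whereas the other 22 values of the pair exceeded all negative probes of their sample.

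**Figure D1:**
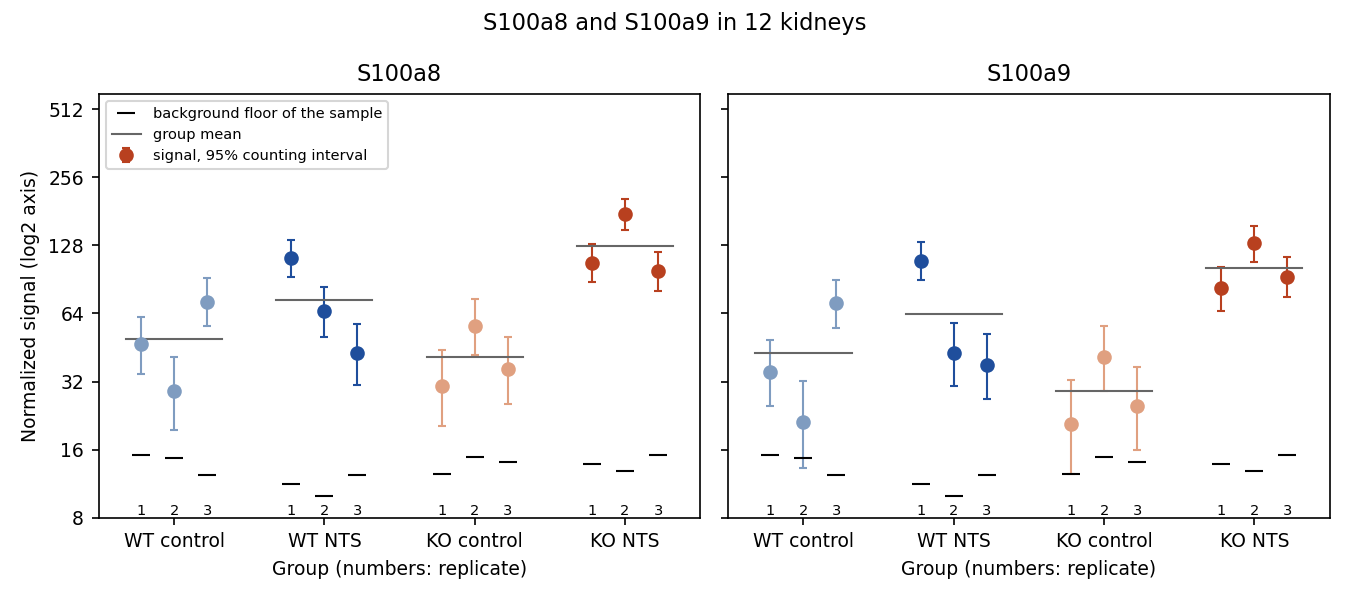
Normalized signal (log2 axis) of S100a8 (left) and S100a9 (right) in each of 12 kidneys, with the replicate number under each point. Bars are 95% Poisson intervals for counting error, grey lines are group means and black dashes are the background floor of each sample. The 3 KO NTS kidneys lie above the 3 KO control kidneys for both genes, while WT NTS 1 lies far above the other 2 WT NTS kidneys.

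The first question was how each genotype responded to the serum. In Aim2 KO kidneys both members rose. S100a8 was 3.04-fold higher in KO NTS than in KO control (log2 difference 1.61, SE 0.42, 95% interval 0.70 to 2.51, adjusted p = 0.00739 by limma). S100a9 was 3.51-fold higher (log2 difference 1.81, SE 0.48, interval 0.77 to 2.85, adjusted p = 0.00787). Adjusted p-values are Benjamini-Hochberg values over the 677 genes tested, with 0.05 as the threshold, and folds are on the log2(signal + 1) scale. Both of 2 members were called, where 48.2% of the 677 genes were called (39.6% higher and 8.57% lower). In 51.7% of tested genes all 3 KO NTS values exceeded all 3 KO control values. The change of the pair was therefore 1 of many on this panel, as S100a8 ranked 110 and S100a9 ranked 85 among the 677 genes by log2 difference, against a median of 0.42 over all tested genes. In whole-kidney RNA, more cells of a type and more RNA per cell cannot be told apart.

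In this comparison the scaling of the samples decided whether the change passed. With the median of the tested genes set equal between samples, the S100a8 difference was 0.83 (adjusted p = 0.0846) and that of S100a9 was 1.04 (adjusted p = 0.0524). That scaling also moved the median of all tested genes from 0.42 to -0.35.

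In WT kidneys neither member passed the test after serum. S100a8 was 1.47-fold higher in WT NTS than in WT control (log2 difference 0.55, 95% interval -0.35 to 1.46, adjusted p = 0.453 by limma). S100a9 was 1.48-fold higher (0.56, interval -0.48 to 1.60, adjusted p = 0.511). Among all tested genes 7.98% were called (5.47% higher). The intervals reach past a doubling of the signal (1 on the log2 scale), so a change of that size in WT kidneys was not excluded by these 3 against 3 mice. Without WT NTS 1 the differences were 0.19 for S100a8 and 0.09 for S100a9 (adjusted p = 0.833 and 0.923).

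The second question was whether untreated kidneys differed by genotype. S100a8 differed by -0.21 on the log2 scale between KO control and WT control (95% interval -1.12 to 0.70, adjusted p = 0.948 by limma) and S100a9 by -0.43 (interval -1.47 to 0.61, adjusted p = 0.870). The groups overlapped for both genes. Over all tested genes 0% were called by limma in this comparison, and 57 genes (8.42%) had an unadjusted p under 0.05. Without WT control 3, the untreated kidney with the highest pair values, the differences were 0.11 and 0.02.

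The third question was whether treated kidneys, and the response itself, differed by genotype. S100a8 was 1.79-fold higher in KO NTS than in WT NTS (log2 difference 0.84, SE 0.42, 95% interval -0.06 to 1.75, adjusted p = 0.134 by limma). S100a9 was 1.77-fold higher (0.82, SE 0.48, interval -0.22 to 1.86, adjusted p = 0.199). Neither was called, while 33.5% of tested genes were (31.2% higher). The difference was smaller with median centring (0.25 and 0.23, adjusted p = 0.659 and 0.716) and with quantile normalization (0.14 and 0.041, adjusted p = 0.835 and 0.954). The overlap came from WT NTS 1, whose S100a8 and S100a9 signals of 113 and 110 lay inside the KO NTS ranges. Without this mouse the differences were 1.20 (adjusted p = 0.0317) and 1.30 (adjusted p = 0.0323), which pass the threshold on the deposited scaling. Over all 677 tested genes, the 227 calls of this comparison became 129 to 329 on leaving out single samples. The serum change in KO minus that in WT was 1.05 for S100a8 (SE 0.59, interval -0.23 to 2.34, adjusted p = 0.253) and 1.25 for S100a9 (SE 0.67, interval -0.22 to 2.72, adjusted p = 0.237), where 10.3% of genes were called. Without WT NTS 1 these were 1.41 (adjusted p = 0.0721) and 1.73 (adjusted p = 0.0492), where 207 of 677 tested genes were called.

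**Figure D2:**
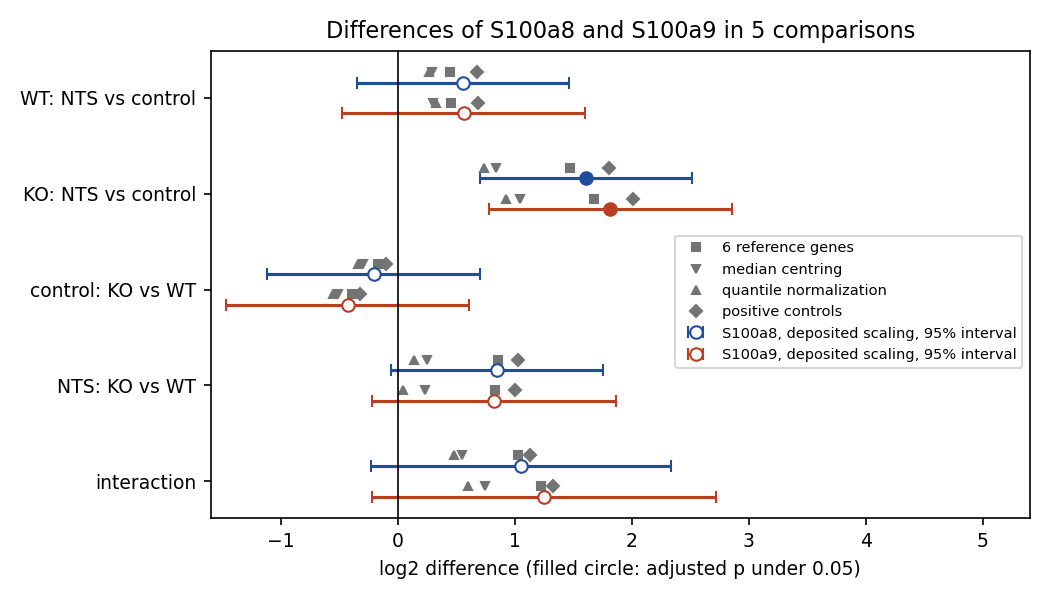
Log2 differences of S100a8 (blue) and S100a9 (red) in 5 comparisons, with 95% intervals from limma on the deposited scaling. Filled circles passed an adjusted p of 0.05, and grey symbols give the same difference under 4 other scalings. Only the KO serum comparison has filled circles, at 1.61 and 1.81, and median centring and quantile normalization move those values to between 0.74 and 1.04.

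Calprotectin forms from both proteins, so the balance of the transcripts within each kidney was compared. Each gene has its own probe, so only differences of the log2 ratio of S100a9 to S100a8 between samples can be read. The ratio was -0.40, -0.43 and -0.02 in WT control 1, 2 and 3, and -0.04, -0.61 and -0.17 in WT NTS. It was -0.54, -0.44 and -0.53 in KO control and -0.37, -0.43 and -0.09 in KO NTS. All KO NTS values were above all KO control values, by 0.21 on average (exact two-sided permutation p = 0.1, the smallest possible with 3 against 3, and 0.25 adjusted over 5 comparisons). The difference was 0.01 between WT NTS and WT control (exact permutation p = 1) and 0.11 between all 6 treated and all 6 untreated kidneys (exact permutation p = 0.398, adjusted 0.664). With 3 against 3 no such comparison could pass the threshold, and the ratios of WT control 2 and KO control 1 rest on S100a9 values within the range of negative probes. The KO serum difference in the ratio was 0.066 with a pseudocount of 20 and 0.75 with background subtraction. KO control lay below WT control by a ratio difference of -0.22 (exact permutation p = 0.1, adjusted 0.25), with no overlap, and this was -0.45 with background subtraction and -0.090 without WT control 3. The order of the mice by S100a8 and by S100a9 was the same in 3 of 4 groups, KO NTS being the exception.

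Across the 12 kidneys the profile most like that of each member was that of the other, with a Pearson r of 0.98 over log2 signals. These coefficients are descriptions over 12 samples that share libraries, scaling and the group differences. After the partner, Mmp12, a macrophage elastase, was nearest to S100a8 (r = 0.92) and to S100a9 (r = 0.93). The WT control kidneys had Mmp12 signals of 42.0, 35.7 and 121, and the WT NTS kidneys 128, 70.9 and 48.5. The KO control kidneys had 48.2, 69.3 and 60.3, and the KO NTS kidneys 138, 163 and 177. WT control 3 and WT NTS 1 were thus the highest kidneys of their groups for Mmp12, as they were for S100a8 and S100a9. Mmp12 rose 2.68-fold in KO kidneys after serum (log2 difference 1.42, adjusted p = 0.0181 by limma). This call was lost with median centring (0.65, adjusted p = 0.187) and with quantile normalization (0.61, adjusted p = 0.228).

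The next profiles for S100a8 were Ccl17 (r = 0.89), a chemokine that draws T cells, Cxcl5 (0.88), a neutrophil chemokine, C7 (0.88), a component of the complement membrane attack complex, and Dtx4 (0.87), a ubiquitin ligase of the Notch pathway. For S100a9 they were Stk11ip (0.89), which binds the kinase Stk11 and is counted among the panel's housekeeping genes, Dtx4 (0.88), Ccl17 (0.87) and Stat3 (0.87), a transcription factor of cytokine signalling. Ccl17 went from 24.3 ± 13.8 to 111 ± 17.5 and C7 from 132 ± 17.3 to 602 ± 205 between KO control and KO NTS (SD, n = 3). With rank correlation 4 of the 6 nearest genes were shared for each member, and with median centring 5 of 6 for S100a8 and 6 of 6 for S100a9. The least like profiles, by r with the averaged log2 profile of both members, were Wnt11 (-0.87), Gpc4 (-0.85) and Sdha (-0.83). Wnt11 is a Wnt ligand, Gpc4 a cell surface proteoglycan and Sdha a subunit of mitochondrial complex II.

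**Figure D3:**
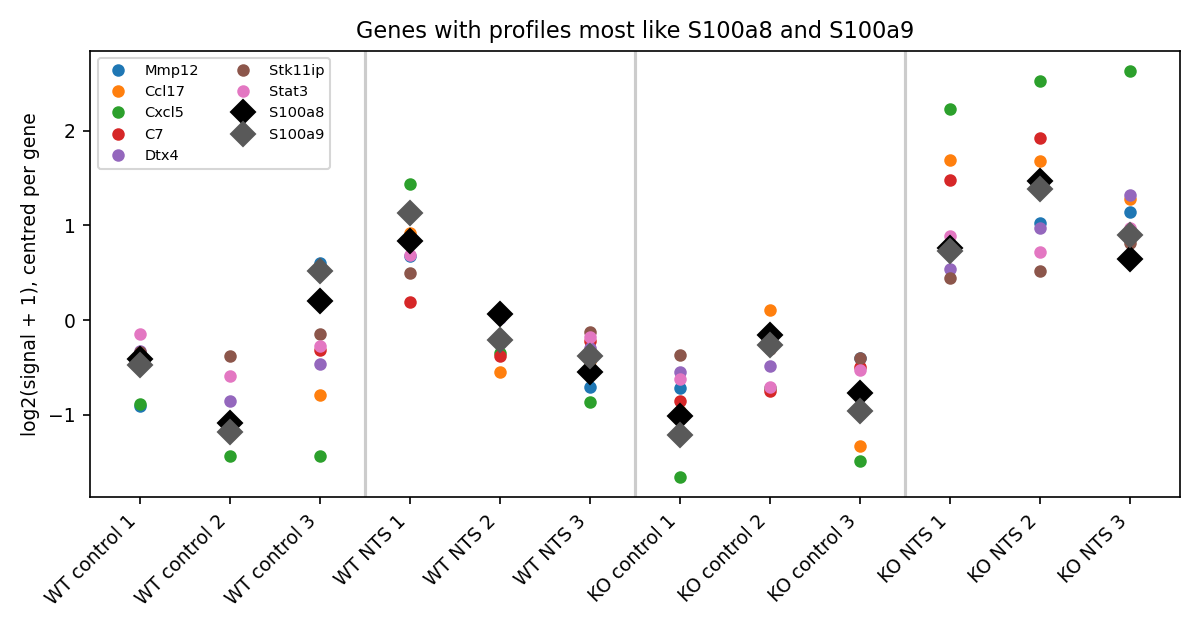
Log2(signal + 1) of S100a8 and S100a9 (diamonds) and the 7 other genes nearest to them by Pearson r (circles), each centred on its own mean, in 12 kidneys. WT NTS 1 and the 3 KO NTS kidneys lie above 0 for both members, and WT control 3 lies above 0 for both members while Cxcl5 and Ccl17 lie below 0 there.

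Genes around calprotectin were read from fixed lists, beginning with its receptors. The lists were chosen with earlier results of these data known, so their counts are descriptions. The list of calprotectin receptors and Tlr4 signalling had 8 members on the panel, and all were tested. In KO kidneys after serum 3 of 8 rose and none fell, with a list median of 0.35 on the log2 scale against 0.42 for all tested genes, of which 39.6% rose. The count of receptors was thus near that of the panel. Cd14, the co-receptor that hands ligands to Tlr4, went from 90.2 ± 18.2 in KO control to 789 ± 234 in KO NTS (SD, n = 3), 8.48-fold higher (adjusted p = 0.000292 by limma). Tlr2, a receptor for bacterial lipoproteins, rose 6.63-fold (adjusted p = 0.000244), and Myd88, the adaptor downstream of both receptors, rose 2.08-fold (adjusted p = 0.000954). Tlr4 itself had a log2 difference of 0.57 (adjusted p = 0.0855), and its partner Ly96 one of 0.14 (adjusted p = 0.456). The scavenger receptor Cd36 and the signalling genes Ticam1 and Map3k7 were not called in any comparison on the deposited scaling. In WT kidneys 0 of 8 were called by limma, against 7.98% of all tested genes. Between KO NTS and WT NTS the same 3 of 8 were higher, near the 31.2% of all tested genes. For Cd14 and Tlr2 the serum change itself was larger in KO than in WT, by 2.62 and 2.08 (adjusted p = 0.0356 and 0.0384), where 10.3% of all tested genes were called. With positive control scaling neither difference between serum changes passed (adjusted p = 0.064 for Cd14 and 0.082 for Tlr2), and that of Tlr2 also missed the threshold with 6 reference genes and median centring. With median centring 2 of 8 rose and 3 fell in KO kidneys after serum, where 134 of 677 tested genes rose and 269 fell. Myd88 did not pass under this scaling (adjusted p = 0.17).

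Of the neutrophil markers, 11 were on the panel and 8 were tested. Ly6g, the surface marker that defines mouse neutrophils, lay at the background floor in 10 of 12 kidneys and never exceeded a signal of 17.7. Cxcr2, the neutrophil receptor for Cxcl1 and its relatives, stayed between 10.02 and 24.9, and Ceacam3 was at the floor in all kidneys except KO NTS 1. In KO kidneys after serum 1 of 8 tested markers rose and 1 fell, and the list median was 0.17 against 0.42 for all tested genes, of which 39.6% rose and 8.57% fell. Csf3r, the receptor for the granulocyte growth factor, went from 16.9 ± 3.84 to 32.2 ± 12 (SD, n = 3), 1.81-fold (adjusted p = 0.0302). This call was lost with 6 reference genes (adjusted p = 0.062), with median centring (0.83) and with quantile normalization (0.37). Hdc, which makes histamine and also marks mast cells and basophils, fell by 1.96 on the log2 scale (adjusted p = 0.0373). In WT kidneys 0 of 8 were called, against 7.98% of all tested genes. Between KO NTS and WT NTS 0 of 8 were called by limma, against 33.5% of all tested genes, and 3 had an unadjusted p under 0.05. The list median in that comparison was 0.56 against 0.45 for all tested genes. There Csf3r and Il1r2 were higher with positive control scaling (adjusted p = 0.0497 and 0.048). The summed signal of the 11 markers was 248 to 321 in KO NTS, inside the 249 to 535 of KO control except for its lowest kidney, and 155 to 317 in WT NTS against 213 to 330 in WT control. This sum includes Hdc, whose fall in KO kidneys can offset a rise of other markers in it. The rise of S100a8 and S100a9 in KO kidneys was thus measured beside Ly6g, Cxcr2 and Ceacam3 signals near background. The share of neutrophils in this rise was not tested.

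Of the monocyte and macrophage markers all 15 on the panel were tested. In KO kidneys after serum 12 of 15 rose and Cd163, Marco and Csf1r did not pass, with a list median of 1.80 on the log2 scale against 0.42 for all tested genes, of which 39.6% rose. In WT kidneys 3 of 15 rose (Fcgr1, C1qa and C1qb), against 5.47% of all tested genes. By limma this count was 0 without WT NTS 1, 0 with 6 reference genes and 1 with positive control scaling, while 8 of 15 had an unadjusted p under 0.05 on the deposited scaling. Between KO NTS and WT NTS 13 of 15 were higher, against 31.2% of all tested genes. With median centring 8 of 15 were higher, against 77 of 677 tested genes. Itgam, the integrin CD11b of monocytes and neutrophils, went from 38.1 ± 14 to 268 ± 15.2 in KO kidneys (SD, n = 3), 7.20-fold (adjusted p = 0.000244 by limma). Itgb2, its partner chain, rose by 1.56 on the log2 scale (adjusted p = 0.000975), and Mrc1, the macrophage mannose receptor, by 2.24 (adjusted p = 0.000324). The summed signal over the list was 2288 to 2520 in KO control and 7355 to 8874 in KO NTS. It was 1594 to 2317 in WT control and 2237 to 5038 in WT NTS, where the highest kidney was again WT NTS 1. The part of these cells in the change of the pair was not tested.

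Neutrophil chemoattractants and growth factors had 11 members on the panel, of which 8 were tested. In KO kidneys after serum 5 of 8 rose, with a list median of 1.10 on the log2 scale against 0.42 for all tested genes, of which 39.6% rose. Cxcl1, the main neutrophil chemokine of injured mouse tissue, went from 15.0 ± 3.05 to 595 ± 173 (SD, n = 3, adjusted p = 0.000147 by limma), and 2 of 3 KO control kidneys lay at the floor. Cxcl5 went from 17.2 ± 6.73 to 234 ± 33.0 (adjusted p = 0.00017), likewise with 2 of 3 controls at the floor. Cxcl2 rose by 2.69 on the log2 scale (adjusted p = 0.000244), and Pf4 and Tnf rose 2.10-fold and 2.18-fold (adjusted p = 0.0125 and 0.0132). The growth factors Csf3 and Csf2, which drive granulocyte output, lay at the floor in all 12 kidneys, and Il17a did so in all except 1 WT NTS kidney. In WT kidneys 0 of 8 passed, against 7.98% of all tested genes, and Cxcl1 had a log2 difference of 2.08 (adjusted p = 0.062). Between KO NTS and WT NTS 5 of 8 were higher (Cxcl1, Cxcl2, Cxcl5, Il1b and Tnf), against 31.2% of all tested genes. With median centring 3 of 8 rose in KO kidneys, where 134 of 677 tested genes rose, and the calls of Pf4 and Tnf were lost. Under this scaling 2 of 8 were higher in KO NTS than in WT NTS, against 77 of 677 tested genes. Without WT NTS 1 these 2 list counts on the deposited scaling were 6 and 7. Over all 677 tested genes, leaving out single samples gave 265 to 355 and 129 to 329 calls in either direction.

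Factors reported to control S100a8 or S100a9 in other settings had 9 members on the panel, and all were tested. In KO kidneys after serum 8 of 9 rose, with a median of 1.48 on the log2 scale against 0.42 for all tested genes, of which 39.6% rose. Hif1a did not pass (-0.15, adjusted p = 0.558). Cebpb, a C/EBP factor of myeloid cells and of inflamed epithelium, went from 314 ± 30.0 to 1360 ± 220 (SD, n = 3), 4.30-fold (adjusted p = 0.000277 by limma). Cebpb and Rela are named although they fall outside the rule for named genes, and were chosen after their values were seen. Stat3 rose 2.78-fold (adjusted p = 0.000309), Myc by 2.50, Atf3 by 2.96 and the AP-1 subunit Fosl1 by 1.73 on the log2 scale (adjusted p = 0.000195, 0.000147 and 0.000915). The NF-kB subunit Nfkb1 rose by 1.14 (adjusted p = 0.00106). In WT kidneys 1 of 9 rose, against 5.47% of all tested genes. This was Atf3, by 1.55 (adjusted p = 0.0246), and without WT NTS 1 it did not pass (1.24, adjusted p = 0.0662). The same 8 were higher in KO NTS than in WT NTS, against 31.2% of all tested genes. For 5 of 9 the serum change was larger in KO (Cebpb, Nfkb1, Rela, Fosl1 and Myc), where 10.3% of all tested genes were called in either direction. That count of 5 was 2 with 6 reference genes, 1 with positive control scaling, 0 by limma with median centring and with quantile normalization, and 7 without WT NTS 1. With median centring 5 rose and 1 fell in KO kidneys after serum, where 134 of 677 tested genes rose and 269 fell. Under this scaling 3 were higher in KO NTS than in WT NTS, against 77 of 677 tested genes.

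Among other alarmins, proteins that signal damage when released, 3 of a list of 13 were on the panel and 2 were tested. Il33, a nuclear cytokine of barrier and stromal cells, rose 3.23-fold in KO kidneys after serum (adjusted p = 0.000195 by limma). In WT it rose 1.79-fold (adjusted p = 0.0445), a call that was lost without WT NTS 1 (0.115), with 6 reference genes (0.0795), with median centring (0.076) and with positive control scaling (0.117). Hmgb1, a chromatin protein that shares receptors with calprotectin, fell by 0.67 on the log2 scale in KO kidneys (adjusted p = 0.00368) and had a difference of -0.22 in WT (adjusted p = 0.419). The fall in KO did not pass with positive control scaling (-0.47, adjusted p = 0.0846). S100a8 and S100a9 were thus accompanied by 1 alarmin that rose and 1 that fell in KO kidneys.

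**Figure D4:**
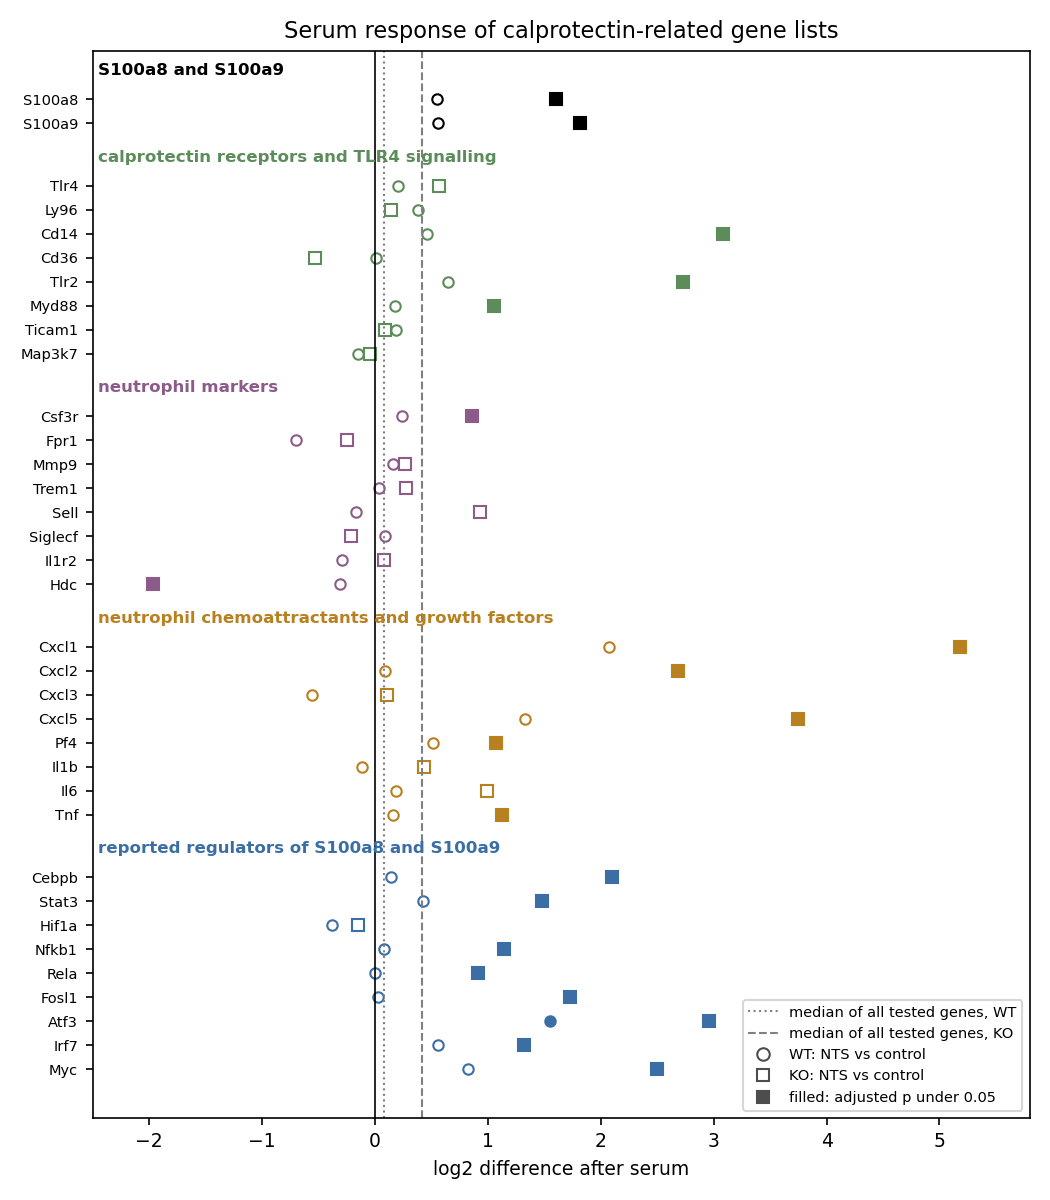
Log2 difference after serum in WT (circles) and KO (squares) kidneys for S100a8, S100a9 and 4 lists around calprotectin, with filled symbols for an adjusted p under 0.05. The dotted and dashed lines mark the medians of all tested genes, 0.08 in WT and 0.42 in KO. Of the neutrophil markers Csf3r and Hdc have filled squares, at 0.86 and -1.96, and Cd14, Tlr2, Cxcl1, Cxcl5 and Cebpb lie to the right of the pair in KO kidneys on the deposited scaling.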

How the data were processed

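Per the labels' protocols, total RNA of 12 kidneys was purified on RNeasy columns. The authors deposited a normalized signal per gene, and per the file headers rows are 750 endogenous genes, 20 housekeeping genes, 8 negative and 6 positive controls. The authors' deposited percent of samples above their threshold, which the header does not define, was 100 for both members. The instrument, its software and the run of each sample are not given in the sources used here. Each sample had a step of 0.955 to 1.09 signal units of which 100% of its values above the floor and under 400 were whole multiples (tolerance 0.0055), and this step gave the counts and their 95% Poisson intervals. The other deposited table was identical for all genes (largest difference 0), and 0 sample columns were unmapped. The number of samples limits the precision.

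Tests used limma 3.58.1 in R 4.3.3 on log2(signal + 1), with 1 mean per group, all 12 samples, a variance trend and no covariate. Of 770 genes, the 677 whose signal reached 20 in 3 or more samples were tested. Two-sided p-values were adjusted (Benjamini-Hochberg) over these genes in each of 5 comparisons. Both members passed this filter. The ratio was compared by exact permutation. Steps were tested on simulated data.

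The members and gene lists were chosen with earlier results of these data known. Named genes were both members, every measured gene of the receptor, neutrophil and chemoattractant lists (summarised where not called), up to 4 genes per list with the smallest p in KO NTS against WT NTS, the 6 most and 3 least like profiles. Promoters came from RefSeq tables, in which both members matched. Lists also covered T, B and NK cells, tubule and kidney injury genes.

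Alternatives were 4 other scalings, another pseudocount (20), no filter or one of 50, another variance model, only the groups compared, the replicate number as a block and each sample left out. The scaling to reference genes used 6 of 7 planned genes, those on the panel. Subtraction of the mean negative control, and the list counts under other scalings and without WT NTS 1, were chosen after seeing the data. Same-numbered samples did not deviate together (3 of 18 pairs with r over 0.1), so the numbers were not taken as pairs.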

Additional observations from a re-analysis of the deposited data

Results flagged for a closer look

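For the following genes named beside S100a8 and S100a9, the change after serum differed between genotypes by the interaction test of limma (adjusted p under 0.05), which neither member passed. Values are the serum change in KO minus that in WT on the log2 scale. Among receptors, Cd14 had 2.62 and Tlr2 had 2.08. Among neutrophil chemokines, Cxcl1 had 3.11, Cxcl2 had 2.60 and Cxcl5 had 2.42. Among transcription factors, Cebpb had 1.96, Fosl1 had 1.70, Myc had 1.67, Nfkb1 had 1.06 and Rela had 0.91. The monocyte and macrophage genes Itgam and Mrc1 had 2.26 and 1.70, and the complement gene C7 had 1.67. The injury genes Mmp7, Spp1 and Csf1 had 4.01, 2.26 and 1.71. The tubule genes Egf and Fbp1 had -2.42 and -1.73. Egf fell in both genotypes and by more in KO. Fbp1 fell in KO (-1.65) and did not fall in WT (0.08, adjusted p = 0.903). All these calls are on the deposited scaling. Of the genes named here, Cxcl2, Mmp7, Egf and Fbp1 also passed under each of the 4 other scalings. Cebpb missed the threshold with median centring (adjusted p = 0.0937), and the others missed it with positive control scaling (0.064 to 0.162). Over all genes 70 passed the interaction test, and the count was 0 by limma on leaving out 9 of the 12 single samples, 89 without WT control 2, 207 without WT NTS 1 and 42 without KO NTS 2.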

How the results depend on the processing

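The rise of the pair in KO kidneys after serum passed with the reference gene and positive control scalings, a pseudocount of 20, the other filters, the other variance model, only the groups compared, background subtraction and every single sample left out (S100a8 1.35 to 1.85, S100a9 1.61 to 2.09). It did not pass with median centring (0.83 and 1.04, adjusted p = 0.0846 and 0.0524) or quantile normalization (0.74 and 0.92, adjusted p = 0.155 and 0.107), and the cause was not tested. Background subtraction gave 2.20 and 2.95. With the replicate number as a block the pair still passed in KO kidneys (adjusted p = 0.0145 and 0.0163) and no other call of the pair changed. Over all genes the block gave 39, 318, 0, 212 and 72 calls in the 5 comparisons, against 54, 326, 0, 227 and 70. Own-number samples were most alike in 11 of 36 cases, which does not pair the samples.

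Leaving out 1 sample moved S100a8 between 0.51 and 1.20 and S100a9 between 0.54 and 1.30 for KO NTS against WT NTS. It moved them between -0.54 and 0.11 and between -0.83 and 0.018 for the untreated kidneys, and S100a9 between 0.80 and 1.73 for the difference between serum changes. In WT kidneys after serum the ranges were 0.19 to 0.88 and 0.09 to 1.01. The log2 ratio changed sign in WT kidneys with a pseudocount of 20 (-0.021) and between -0.11 and 0.18 on leaving out samples. Between treated genotypes it changed sign with background subtraction (0.018) and between -0.19 and 0.094 on leaving out samples.

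Counts of genes called over the panel moved more. For the difference between serum changes, 70 became 24 with reference genes, 20 with median centring, 46 with quantile normalization, 9 with positive controls, 43 with the other variance model and 0 with background subtraction, and 0 to 207 on leaving out samples. For WT kidneys 54 became 2 with only the groups compared and 9 to 94 on leaving out samples. For treated genotypes 227 became 141 and 129 to 329, and for untreated genotypes 0 became at most 22, without WT control 2. In KO kidneys after serum 268 genes higher and 58 lower became 134 and 269 (median centring) or 159 and 214 (quantile normalization). Between treated genotypes 211 and 16 became 77 and 97, and 90 and 97.

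Low counts limit S100a9 most, since 2 untreated kidneys lay within the range of negative probes. Scaling on housekeeping genes assumes that these did not change, and Stk11ip, 1 of the 20, rose 1.93-fold in KO kidneys after serum (adjusted p = 0.00357 by limma). With 3 mice a group, the intervals of the pair span about 2 log2 units.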

Other observations

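Of 11 tested T cell markers 1 rose in KO kidneys after serum, against 39.6% of all tested genes. This was Cd4, by 0.74 on the log2 scale (adjusted p = 0.0445 by limma). In WT kidneys 0 were called, against 7.98% of all tested genes, and 2 had an unadjusted p under 0.05. The Cd4 call was lost under each of the 4 other scalings (adjusted p = 0.0557 to 0.894). With median centring 8 of 11 T cell markers fell, where 269 of 677 tested genes fell. Of 6 tested NK cell markers 1 rose in each genotype, against 5.47% of all tested genes in WT and 39.6% in KO. This was Klrd1, by 1.04 in WT (adjusted p = 0.0161) and 1.38 in KO (adjusted p = 0.00032). The NK list median was 0.65 in WT and 0.15 in KO. With median centring 3 of 6 fell in KO, where 269 of 677 tested genes fell. Of 2 tested B cell markers 0 were called by limma in either genotype, against 7.98% of all tested genes in WT and 48.2% in KO. In KO kidneys 1 of the 2 had an unadjusted p under 0.05.

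Kidney genes moved in both directions in KO kidneys after serum. Of 5 tubule markers 4 fell (Egf, Fbp1, Prlr and Ghr), against 8.57% of all tested genes. Pck2 rose, a call lost with 6 reference genes, median centring and quantile normalization. Egf, a growth factor of the distal tubule, decreased by 3.93 on the log2 scale (adjusted p = 7.39e-06 by limma). Of 9 injury genes 8 rose, against 39.6% of all tested genes, with a median of 3.59. The lists were chosen with earlier results of these data known, so this count and median are descriptions only. Spp1, a matrix protein of injured tubules, rose by 3.91 (adjusted p = 0.000147). In WT kidneys Egf was the 1 tubule marker that fell, by 1.51 (adjusted p = 0.0158). There 2 injury genes rose, Spp1 and Ccl2 (adjusted p = 0.0454 and 0.0269), against 5.47% of all tested genes. The Spp1 call was lost with 6 reference genes (adjusted p = 0.0694). Quantile normalization gave Spp1 a difference of 0 after serum in both genotypes, so that scaling cannot test this call.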
